A study of Homo sapiens with 6 samples.

Results

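The shHMGA2-1 and shHMGA2-2 lines, which carry different short hairpin RNAs (shRNAs) against the same gene, were compared directly with each other. The comparison used 4 of the 6 RNA-seq libraries of the series, chosen by their titles: 2 of shHMGA2-1 and 2 of shHMGA2-2. The remaining 2 libraries, titled shNC (the study's control), entered the estimate of the spread between replicates and are given as a reference level. All lines were made from MDA-MB-231 cells, established from a breast cancer of the triple-negative type, which lacks the estrogen and progesterone receptors and HER2 amplification. The study's methods describe infection with lentivirus and selection with puromycin, with the shRNAs against HMGA2 in a pLKO vector. They do not describe the sequence or vector of shNC. According to the study's methods, knockdown lines were expanded from a single clone, which is not stated for shNC, so that the effect of an shRNA and a difference between clones cannot be told apart here. The column names of the table do not match the titles in wording: the columns of shNC are named WT, and those of shHMGA2-1 hold the letters SH2. The titles were followed, so that the assignment of each shRNA to its line rests on them. The labels do not say whether the replicates of a line were separate cultures, and p-values then measure only the spread between these samples.

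HMGA2 encodes a small chromatin protein that bends AT-rich DNA through its AT-hooks. It is made mainly in the embryo and is made again in many aggressive tumors. An shRNA is processed to a short guide that directs the silencing machinery to transcripts with a matching site, so that shRNAs against different sites of a gene should share only the intended target. A line grown from a single cell also keeps the genome copies and the active and silent genes that this cell had.

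The target sites lie in HMGA2 on the plus strand of chromosome 12 in GENCODE version 29 (GRCh38) and are shown because they are the designed difference between the lines. Capitals mark the bases of the last exon.

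shHMGA2-1: agtccctctaaagcagctcaa

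shHMGA2-2: agGAGGAAACTGAAGAGACAT

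The shHMGA2-1 site covered positions 65828064 to 65828084 in exon 2 and occurred in all 7 protein-coding transcripts. The shHMGA2-2 site began with 2 bases of exon 4 (65951414 to 65951415) and continued for 19 bases in exon 5 (65963245 to 65963263). It occurred in 1 of the 7 protein-coding transcripts, ENST00000403681.6. Both sites were within the coding sequence of that transcript.

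The libraries held 16461178 to 17167293 counts, and mitochondrial genes took 6.74% to 7.861% of them. Levels are given as CPM, which is the count of a gene relative to the total of its library after scaling between libraries (trimmed mean of M values, TMM). A gene with a count of 0 could still have had 3 counts, or 0.172 to 0.185 CPM, a limit that covers counting error only. The spread between replicates exceeded sampling noise: chi-square divided by its degrees of freedom was 6.208 for shHMGA2-1 and 2.914 for shHMGA2-2. The root mean square difference in log2 CPM was 0.3807 between the shHMGA2-1 libraries and 0.3529 between the shHMGA2-2 libraries. Between a library of each line it was 1.045 to 1.07.

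The labelled cell type was compared with its known markers. CDKN2A, a cell cycle inhibitor that is deleted in MDA-MB-231, had 0 counts in all 4 libraries. The estrogen receptor gene ESR1 had 2 counts in each of them, the progesterone receptor gene PGR had 0 or 1, and the epithelial cadherin gene CDH1 had 1 to 4. The mesenchymal filament gene VIM was at 2180 to 2200 CPM in shHMGA2-1 and 2030 to 2070 CPM in shHMGA2-2, a log2 difference of -0.09 that did not pass the test (adjusted p = 0.1356, edgeR). The surface receptor CD44 was at 789 and 836 CPM in shHMGA2-1 and 932 and 880 CPM in shHMGA2-2. Both lines therefore carried these markers of the parental cells. Of 20 leukocyte markers, 18 had too few counts to be tested, with at most 16 counts in a library. In RNA from whole cultures, fewer cells of a type and less RNA per cell cannot be told apart.

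HMGA2 itself was lower in shHMGA2-2 than in shHMGA2-1. It was at 49.5 and 58.3 CPM in the shHMGA2-1 libraries and at 25.7 and 27.6 CPM in the shHMGA2-2 libraries, against 131 and 133 CPM in shNC. The lines did not overlap, and both lay below shNC. The log2 difference was -1.01 (SE 0.0951, adjusted p = 3.074e-09, quasi-likelihood test of edgeR). It lay so close to 2-fold that other settings moved it across that limit, to -0.96 with upper quartile scaling, -0.99 with a filter at 1 CPM, -0.69 with limma on log2(FPKM + 1), -0.89 when shHMGA2-1 replicate 2 was left out and -0.96 when shHMGA2-2 replicate 1 was.

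The chromatin acetyltransferase gene KAT6A, which the study links to HMGA2, was at 80.1 and 93.7 CPM in shHMGA2-1 and at 82 and 69.1 CPM in shHMGA2-2. Its log2 difference of -0.20 did not pass the edgeR test (adjusted p = 0.063). MMP1, a collagenase, was at 3.06 and 3.12 CPM in shHMGA2-1 and at 0.295 and 0.115 CPM in shHMGA2-2, against 9.54 and 10.2 CPM in shNC. Its log2 difference was -3.87 (SE 0.411, adjusted p = 2.422e-08, edgeR). The gelatinase genes MMP2 and MMP9 had 0 to 2 counts in each of the 4 knockdown libraries and were not tested. The filter for testing covered shNC as well, so that their counts there were also too low to pass it. A fall of these genes from shNC can therefore not be read here.

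Of 61806 genes, 16110 had enough counts to be tested. A gene was called different when its adjusted p was under 0.05 and its change at least 2-fold. By this rule 2432 genes, or 15.1% of those tested, differed between the knockdown lines. In shHMGA2-2, 1261 genes were higher (7.83% of tested genes) and 1171 were lower (7.27%). Of these, 556 were higher and 439 lower by at least 4-fold, and 230 higher and 125 lower by at least 16-fold. The median log2 difference over all tested genes was -0.00174, so that the scaling placed the bulk of genes at no change. DESeq2 called 2040 genes, and limma on log2(FPKM + 1), which understates the change of low genes, called 784.

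The level of the called genes in shNC was closer to shHMGA2-1 than to shHMGA2-2 for 2010 of the 2432 genes (82.6%). The share was alike for genes higher in shHMGA2-2 (81.4%) and for genes lower in it (83.9%). In 1175 of the 2432 genes the shNC level lay between those of the knockdown lines, and in 634 above and 623 below both. These counts describe positions and were given no test.

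Many calls were genes detected in a single knockdown line. Of the 1261 higher genes, 261 had at most 3 counts in each shHMGA2-1 library, and 109 of these had 0 counts in both. Of those 261 genes, 196 were also at or under 3 counts in each shNC library. These 196 genes had enough counts to be tested only through shHMGA2-2, so that they could be called only as higher. Of the 1171 lower genes, 142 had at most 3 counts in each shHMGA2-2 library, and 37 had 0 counts in both. Only 1 of those 142 genes was at this floor in shNC as well. Genes at the floor in shHMGA2-1 were thus mostly at the floor in shNC too, whereas genes at the floor in shHMGA2-2 had more counts in shNC, with that 1 exception.

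By type of gene, 14.1% of 12768 protein-coding genes and 20.6% of 2094 long noncoding RNA genes were called. The noncoding genes were more often higher (11.7%) than lower (8.93%) in shHMGA2-2, whereas the protein-coding genes were split evenly (7.03% and 7.11%).

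The largest increases among genes with at least 10 CPM in the higher line were of genes with no counts in shHMGA2-1, apart from CD74 with 1 count, which is described with its pathway. LINC02474, a long noncoding RNA gene on chromosome 1, had 0 CPM in both shHMGA2-1 and both shNC libraries and was at 59 and 58.6 CPM in shHMGA2-2, at least 332-fold higher. BMP5, a bone morphogenetic protein, was at 0 CPM in shHMGA2-1 and shNC and at 35.4 and 33.1 CPM in shHMGA2-2, at least 194-fold higher. Both libraries of shHMGA2-2 stood apart from all others for each of these genes.

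GSPT2, an intronless relative of a translation termination factor, reached 27.5 CPM in both shHMGA2-2 libraries and had 0 CPM in shHMGA2-1, at least 156-fold higher. ZNF558, a zinc finger repressor, was at 25.6 and 23.6 CPM against 0, at least 139-fold higher. VWA5A was at 16.4 and 17.3 CPM against 0, at least 95.2-fold higher. The other genes of this group were GSTM1, a glutathione transferase with near-identical neighbours (at least 95.7-fold), the immunoglobulin segment IGHV3-15 (at least 129-fold) and the pseudogene ZBED10P (at least 127-fold). How reads of near-identical copies were assigned is not known here, so that these 3 values are uncertain.

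The largest decreases were of genes with no or few counts in shHMGA2-2. THBS2, a matrix thrombospondin, was at 28.7 and 27.4 CPM in shHMGA2-1 and 17.1 and 18.2 CPM in shNC but had no counts in shHMGA2-2, where it was at least 158-fold lower. LINC00261, a long noncoding RNA gene next to FOXA2 on chromosome 20, was at 25.3 and 26.5 CPM in shHMGA2-1 and had 0 counts in shHMGA2-2, at least 146-fold lower. Its neighbour FOXA2, a pioneer transcription factor of endoderm, was at 39.9 and 38.9 CPM in shHMGA2-1 and at 0.236 and 0 CPM in shHMGA2-2. The log2 difference of FOXA2 was -8.31 (SE 0.271, adjusted p = 7.319e-18, edgeR). For these 3 genes the shNC libraries were on the side of shHMGA2-1.

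ATP10A, a phospholipid flippase, was at 23 and 23.9 CPM in shHMGA2-1 and 0 in shHMGA2-2, at least 132-fold lower, while shNC was at 0.554 and 2.03 CPM. NAP1L3 was at 20.6 and 22.1 CPM against 0 (at least 121-fold lower) and the kinase gene NRK at 12.7 and 14.4 CPM against 0 (at least 76.6-fold lower). The other 4 genes had 1 to 5 counts over both shHMGA2-2 libraries, and their ratios are given with 95% intervals for counting error only. PIK3CG, a phosphoinositide kinase subunit, was 683-fold lower (122 to 27000). GPC4, a heparan sulfate proteoglycan, was 669-fold lower (120 to 26500). AMPH, an endocytic protein, was 359-fold lower (99.1 to 2970), and HS6ST2, a heparan sulfate sulfotransferase, 316-fold lower (135 to 974).

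By the difference in CPM, the largest increase was of THBS1, the other matrix thrombospondin. It was at 85.7 and 79.7 CPM in shHMGA2-1 and at 715 and 706 CPM in shHMGA2-2, with shNC between them at 189 and 190 CPM (log2 difference 3.10, SE 0.068, adjusted p = 4.38e-21, edgeR). THBS1 and THBS2 thus differed in opposite directions. SDC4, a heparan sulfate proteoglycan of focal adhesions, was at 116 and 119 CPM against 576 and 535 CPM. UCA1, a long noncoding RNA gene, was at 1.5 and 1.24 CPM against 366 and 393 CPM (log2 difference 8.11, SE 0.125, adjusted p = 6.019e-24, edgeR). The inhibitor of apoptosis BIRC3 and the ubiquitin-activating enzyme UBA1 completed the group, with log2 differences of 1.53 and 1.32.

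The largest decrease in CPM was of ITGB1, the beta subunit shared by the main collagen and fibronectin receptors. It was at 3170 and 3490 CPM in shHMGA2-1 and at 1460 and 1350 CPM in shHMGA2-2, with shNC at 3890 and 3900 CPM (log2 difference -1.24, SE 0.0571, adjusted p = 4.738e-15, edgeR). KIF5B, a kinesin heavy chain encoded near ITGB1 on chromosome 10, was at 1310 and 1540 CPM against 584 and 544 CPM (log2 difference -1.34). HIF1A, the hypoxia-responsive transcription factor, was at 1110 and 1240 CPM against 477 and 475 CPM (log2 difference -1.30). ANKRD1, a target of the YAP coactivator, was at 778 and 861 CPM against 163 and 146 CPM. FGF5, a secreted fibroblast growth factor, was at 478 and 581 CPM against 9.99 and 8.66 CPM (log2 difference -5.83, SE 0.104, adjusted p = 9.006e-23, edgeR), with shNC at 470 and 482 CPM.

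Gene lists were described by the number of members called beside the background of 7.83% higher and 7.27% lower. The lists for basic cell functions held few calls. None of 24 mitosis genes, 25 DNA replication genes, 82 cytosolic ribosomal protein genes, 82 respiratory chain genes and 13 protein-coding genes of the mitochondrial genome was called, and 2 of 37 proteasome subunit genes were. The median log2 difference was 0.01 for the mitosis genes, 0.09 for the replication genes and -0.10 for the ribosomal protein genes.

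Among lists with 10 or more tested members, the largest share was that of MHC class II, the proteins that present peptides to helper T cells. Of 12 listed members 10 were tested, and all 10 were higher in shHMGA2-2. Their median log2 difference was 6.404, or 4.89 when the 3 members at 0 counts in shHMGA2-1 are set to their bound. Several members had few or no counts in the other 4 libraries and passed the count filter only through shHMGA2-2. Such a member could be called only as higher, so that the share was partly fixed in advance. CD74, the invariant chain, was at 0 and 0.0589 CPM in shHMGA2-1 and at 185 and 198 CPM in shHMGA2-2, a ratio of 6570 (1180 to 260000, 95% interval for counting error). CIITA, the master coactivator of this gene group, was at 0.922 and 1 CPM against 18.6 and 21.3 CPM (log2 difference 4.36, SE 0.224, adjusted p = 3.84e-14, edgeR). HLA-DRA, a peptide-binding chain, was at 0.0576 and 0.236 CPM against 87.2 and 85.7 CPM, and HLA-DPA1 at 0.692 and 0.707 CPM against 40.5 and 37.8 CPM. The 2 shHMGA2-2 libraries were above the other 4 for each of these genes.

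MHC class I and its peptide loading genes differed less. Of 15 tested members, 2 were higher and none lower, with a median log2 difference of 0.44. HLA-B was at 76.8 and 66.2 CPM in shHMGA2-1 and at 187 and 195 CPM in shHMGA2-2, a log2 difference of 1.42. The peptide transporter TAP1 had a log2 difference of 1.04, which was 0.93, under 2-fold, without shHMGA2-1 replicate 2.

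Of 28 interferon-stimulated genes, 7 were higher and none was lower. BST2, a membrane tether of budding viruses, was at 0.519 and 0.177 CPM in shHMGA2-1. In shHMGA2-2 it was at 20 and 19.8 CPM, a log2 difference of 5.80. RSAD2 (viperin) was at 0.231 and 0.118 CPM against 6.32 and 4.93 CPM, and IFI27 at 1.27 and 1 CPM against 10.4 and 9.86 CPM. BST2 and RSAD2 had at most 9 and 4 counts in any other library, and the list member CMPK2 had 0. These genes passed the count filter only through shHMGA2-2. They could be called only as higher, so that the count of higher calls was partly fixed in advance. The classic member IFIT1 lay the other way without reaching 2-fold, with a log2 difference of -0.39. RSAD2, its neighbour CMPK2 and the helix-loop-helix inhibitor ID2 also formed a run on chromosome 2, given with the genome positions. With limma on log2(FPKM + 1), 2 interferon-stimulated genes were called.

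NF-kB is a family of transcription factors that is held in the cytoplasm by inhibitor proteins and, once released, drives inflammatory genes and its own inhibitors. Of 23 tested targets and subunits, 13 were higher and 3 lower in shHMGA2-2, with a median log2 difference of 1.06. CXCL8, a neutrophil chemokine, was at 9.68 and 14.2 CPM in shHMGA2-1 and at 149 and 153 CPM in shHMGA2-2 (log2 difference 3.66, SE 0.115, adjusted p = 3.074e-18, edgeR). CXCL1 was at 6.46 and 6.07 CPM against 36.9 and 34.7 CPM. The feedback inhibitors TNFAIP3 and NFKBIA had log2 differences of 2.16 and 1.80, and the subunit gene RELB one of 1.67.

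CCL2, a monocyte chemokine, was at 0 CPM in shHMGA2-1 and at 0.591 and 0.86 CPM in shHMGA2-2, at least 4.1-fold higher. With 0 counts in shNC as well, CCL2 passed the count filter only through shHMGA2-2 and could be called only as higher. The lower members were PTGS2 (cyclooxygenase 2, -4.26), the adhesion receptor gene ICAM1 and the cytokine gene IL1B. For IL1B the log2 difference of -1.70 had an adjusted p of 0.01624 in edgeR. Leaving out shHMGA2-1 replicate 2 raised this edgeR p to 0.1638, and leaving out a library of shHMGA2-2 raised it to 0.07426 (replicate 1) or 0.08342 (replicate 2). DESeq2 gave an adjusted p of 0.06032. The subunit gene NFKB1 had a log2 difference of 0.35, and IL6 one of -0.49 that did not pass the test. Among chemokines, 5 of 8 tested were higher, CCL2 among them, and none lower.

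Promoters of these groups were searched for short sequences, as a description. The sequences are those of RefSeq on GRCh38.p14, from 250 bases before to 50 bases after the start of a gene, and the motifs were chosen after their matches had been seen. An NF-kB site was written as GGGNNTTTCC on either strand, which 1.92% of 27305 promoters held. Of 19 tested NF-kB list members with a promoter sequence, 9 held it: 7 of the 13 called in either direction and 2 of the 6 others, NFKB1 and IL6. The lower members PTGS2, ICAM1 and IL1B were among these 13 and did not hold it. CXCL1 and BIRC3 are shown because both were called and hold the site, which is in capitals, on opposite strands. The CXCL1 promoter is at chr4:73869143-73869442 on the plus strand and its site starts 79 bases before the gene. The BIRC3 promoter is at chr11:102317234-102317533 on the plus strand and its site starts 199 bases before the gene.

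CXCL1: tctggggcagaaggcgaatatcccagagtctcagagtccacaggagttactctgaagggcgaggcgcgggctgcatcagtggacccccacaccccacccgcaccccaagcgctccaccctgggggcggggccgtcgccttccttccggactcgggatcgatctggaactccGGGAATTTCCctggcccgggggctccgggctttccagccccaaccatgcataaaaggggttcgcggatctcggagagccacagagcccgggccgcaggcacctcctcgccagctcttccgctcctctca

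BIRC3: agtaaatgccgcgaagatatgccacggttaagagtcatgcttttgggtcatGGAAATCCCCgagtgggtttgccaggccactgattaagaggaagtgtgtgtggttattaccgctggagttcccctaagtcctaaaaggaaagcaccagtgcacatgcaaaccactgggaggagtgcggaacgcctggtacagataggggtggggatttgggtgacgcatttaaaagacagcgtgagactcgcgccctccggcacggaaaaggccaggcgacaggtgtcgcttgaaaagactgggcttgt

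The MHC class II genes share a promoter module that ends in a Y box, a site of the CCAAT factor NF-Y. The core ATTGG, on either strand, was held by 7 of the 8 tested members with a promoter sequence and by 35.7% of all promoters. The promoter of CD74, the member with the largest difference, is shown with this core in capitals. It is at chr5:150412861-150413160 on the minus strand and the core starts 53 bases before the gene.

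CD74: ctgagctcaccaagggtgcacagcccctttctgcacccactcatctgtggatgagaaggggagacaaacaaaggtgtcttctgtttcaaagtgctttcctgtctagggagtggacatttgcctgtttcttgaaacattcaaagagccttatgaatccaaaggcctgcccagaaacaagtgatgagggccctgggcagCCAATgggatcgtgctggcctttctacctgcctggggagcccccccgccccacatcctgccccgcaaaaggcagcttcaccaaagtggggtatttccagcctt

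Genes of sterol synthesis, which SREBP transcription factors switch on when cholesterol is short, were mostly lower in shHMGA2-2. Of 23 tested, 13 were lower and 1 was higher, with a median log2 difference of -1.09. MSMO1, an enzyme that removes methyl groups from sterols, was at 113 and 128 CPM in shHMGA2-1 and at 26.2 and 27.1 CPM in shHMGA2-2 (log2 difference -2.17, SE 0.0874, adjusted p = 3.748e-16, edgeR). HSD17B7, a ketosteroid reductase of the pathway, was at 21.4 and 21.9 CPM against 5.44 and 7.05 CPM. INSIG1, the sensor protein that retains SREBP, was at 85.8 and 103 CPM against 29.4 CPM in both libraries.

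SREBF2, which encodes the SREBP of this pathway, was at 127 and 118 CPM against 49.2 and 51.6 CPM (log2 difference -1.29). FDFT1, the enzyme that makes squalene, was at 209 and 204 CPM against 64.4 and 62 CPM (log2 difference -1.71), and STARD4, a carrier of cholesterol, at 135 and 161 CPM against 45.7 and 47.5 CPM (log2 difference -1.67). The shNC libraries were above both shHMGA2-1 libraries for each sterol gene given here.

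The ERK kinase cascade switches on its own inhibitors, which are read as a measure of its output. Of 22 such output genes, 8 were lower and 1 was higher in shHMGA2-2, with a median log2 difference of -0.64. DUSP4, a nuclear phosphatase of ERK, was at 145 and 124 CPM in shHMGA2-1 and at 5.67 and 5.62 CPM in shHMGA2-2, with shNC at 274 and 281 CPM (log2 difference -4.58, SE 0.108, adjusted p = 1.491e-20, edgeR). SPRY1, an inhibitor of receptor tyrosine kinases, was at 37.3 and 34.5 CPM against 8.63 and 8.89 CPM. The phosphatase genes DUSP5 and DUSP6 had log2 differences of -1.47 and -1.46, and the receptor gene EPHA4 one of -1.81. FOS, an immediate early gene, was the member called higher (log2 difference 1.35).

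Developmental signalling pathways were called in both directions. Among 27 TGF-beta and BMP genes, 6 were higher and 2 lower. Beside BMP5, ID2 was at 0.173 and 0.295 CPM in shHMGA2-1 and at 12.4 and 15.7 CPM in shHMGA2-2, and ID1 had a log2 difference of 1.53. BMP5 had 0 counts in the shHMGA2-1 and shNC libraries, and ID2 at most 11 in any of them. Both passed the count filter only through shHMGA2-2, so that they could be called only as higher. The ligand gene BMP2 was at 3.06 and 3.01 CPM against 0, at least 17.1-fold lower, and the receptor gene BMPR1B had a log2 difference of -3.43. Among 29 Wnt pathway genes, 3 were higher and 7 lower. WNT7B was at 13.1 and 10.1 CPM in shHMGA2-1 and at 0.236 and 0.115 CPM in shHMGA2-2, WNT5A at 14.3 and 17.7 CPM against 0.532 and 0.745 CPM, and the receptor gene LGR4 at 101 and 118 CPM against 15 and 13.9 CPM.

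Matrix and adhesion families held more calls than the background, without a common direction. Of 22 collagens, 6 were higher and 5 lower. COL6A3, a chain of the microfibrillar collagen VI, was at 0.231 and 0.295 CPM in shHMGA2-1. In shHMGA2-2 it was at 20.7 and 19.4 CPM, a log2 difference of 6.22. With 4 and 5 counts in shHMGA2-1 and 4 and 1 in shNC, COL6A3 passed the count filter only through shHMGA2-2. COL11A2 and COL17A1 had log2 differences of 3.53 and 2.84. Of 10 laminins, 3 were higher and 2 lower. LAMB3, a chain of the epithelial laminin 332, was at 59.3 and 50.6 CPM against 343 and 367 CPM. LAMA5 and LAMB1, chains of the common basement membrane laminins, were at 179 and 136 CPM against 9.63 and 12.4 CPM, and at 269 and 262 CPM against 41.8 and 40.8 CPM.

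Of 17 integrins, 2 were higher and 5 lower, among them ITGB1. ITGB2, the beta subunit of leukocyte integrins, was at 25.5 and 23.7 CPM in shHMGA2-1 and at 3.72 and 4.47 CPM in shHMGA2-2. ITGB4, the laminin receptor of hemidesmosomes, was at 74.3 and 62.3 CPM against 22.2 and 19.7 CPM, with shNC lower than both at 10.1 and 9.66 CPM. Tenascin C (TNC), a matrix glycoprotein, was at 0.461 and 0.295 CPM in shHMGA2-1 and at 11.2 and 12.6 CPM in shHMGA2-2, and there the shNC libraries (11.8 and 12.9 CPM) were on the side of shHMGA2-2. The guidance receptor genes NRP1 and PLXNA2 were lower in shHMGA2-2, with log2 differences of -3.27 and -5.47.

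Of 32 potassium channel genes, 9 were higher and 10 lower. KCNK5, a two-pore channel, was at 0 CPM in shHMGA2-1 and at 4.61 and 5.45 CPM in shHMGA2-2, at least 28.4-fold higher. With 0 counts in shNC as well, KCNK5 passed the count filter only through shHMGA2-2 and could be called only as higher. KCNK1, of the same family, was at 10.6 and 9.31 CPM against 0.532 and 0.803 CPM. Of 29 protocadherins, 11 were higher and 5 lower, with PCDH7 at 12.4 and 12 CPM against 0.946 and 0.688 CPM.

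The Pathway and GO columns of the table were read term by term, for terms with 20 to 500 tested genes. The median share of genes called was 15.8% over 294 KEGG pathways and 13.6% over 1436 GO terms, and 26 KEGG pathways and 126 GO terms had 30% or more. The number of such KEGG pathways was 6 with limma on log2(FPKM + 1) and 4 when all genes with at least 1 count were tested. With terms from 10 tested genes on, the largest share was that of Asthma (100%). Among the pathways with 20 or more tested genes, the largest share was that of Malaria, with 16 of 27 genes (6 higher and 10 lower, among them THBS1, THBS2, CXCL8 and ITGB2). It was followed by the intestinal immune network for IgA production (13 of 23), rheumatoid arthritis (33 of 61), Staphylococcus aureus infection (19 of 36), allograft rejection (15 of 30) and autoimmune thyroid disease (14 of 29). The largest differences in these 5 pathways were of IGHV3-15 and the MHC class II genes, which they share, so that they are not separate results.

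At the other end, no gene was called among 23 genes of fatty acid elongation, 20 of glycosaminoglycan degradation and 35 of the pathway Autophagy - other. The lowest median log2 difference was that of steroid biosynthesis (-0.713), where 7 of 21 genes were lower and none higher. Among GO terms the voltage-gated potassium channel complex had the largest share (16 of 30), followed by voltage-gated ion channel activity (11 of 21), anchored component of membrane (14 of 30) and extracellular matrix structural constituent (22 of 48). Cholesterol biosynthetic process had the lowest median (-0.722), with 11 of 31 genes lower. The table also gives terms to pseudogenes, such as CYP51A1P2 among the sterol genes. Of the terms that the study describes for HMGA2 knockdown, extracellular matrix held 20 higher and 27 lower of 121 genes (38.8%), and extracellular matrix organization 14 higher and 15 lower of 81 (35.8%). Pathways in cancer held 38 higher and 56 lower of 485 (19.4%).

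Markers of cell identity were mixed. Of 15 tested epithelial markers 4 were higher and 2 lower, and of 15 mesenchymal markers 5 were higher and 3 lower. The keratin KRT8 was at 90 and 78.3 CPM in shHMGA2-1 and at 181 and 196 CPM in shHMGA2-2, whereas KRT19 (log2 difference -1.81) and EPCAM (-1.09) were lower. The transcription factors of the mesenchymal state also differed in both directions. SNAI2 was at 5.48 and 5.07 CPM against 29.1 and 27.7 CPM (log2 difference 2.43, SE 0.138, adjusted p = 2.817e-13, edgeR), while ZEB1 was at 235 and 276 CPM against 113 and 110 CPM (log2 difference -1.20, SE 0.0738, adjusted p = 1.288e-12, edgeR).

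SOX9, a factor of progenitor and cartilage cells, was at 14.2 and 15.4 CPM in shHMGA2-1 and at 109 and 101 CPM in shHMGA2-2. GATA3, a luminal breast factor, was at 2.48 and 2.24 CPM against 15.5 and 18.2 CPM, whereas FOXA1, its usual partner, was at 3.69 and 4.01 CPM against 0.295 and 0.0573 CPM. Together with FOXA2 and AFP, which was at 0.576 and 0.825 CPM against 0, 3 of the 4 tested endoderm and liver markers were lower, and 1 was higher. The other 8 of the 12 listed had too few counts to be tested. The adhesion molecule MCAM was at 2.65 and 2.89 CPM against 45.9 and 50.4 CPM, and the endothelial adhesion molecule ESAM at 130 and 116 CPM against 10.4 and 11.5 CPM. Of 5 tested endothelial markers, ESAM was the only 1 called. The imprinted gene MEST had 3 counts over both shHMGA2-1 libraries and was at 10 and 7 CPM in shHMGA2-2, a ratio of 97.2 (32.9 to 474, 95% interval for counting error).

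Zinc finger genes on chromosome 19, most of which encode KRAB repressors in clusters, were higher where they were called. Of 224 tested, 43 were higher and none was lower in shHMGA2-2, and 189 of the 224 differences were positive (median log2 difference 0.47). ZNF649 was at 0 CPM in shHMGA2-1 and at 8.45 and 9.18 CPM in shHMGA2-2 (at least 49.8-fold higher), ZNF813 at 0 against 8.92 and 6.82 CPM (at least 44.5-fold), and ZNF577 at 0 against 7.92 and 7.23 CPM (at least 42.8-fold). ZNF439 was at 1.33 and 0.943 CPM against 29 and 28.7 CPM. ZNF649, ZNF813 and ZNF577 had 0 counts in shHMGA2-1 and at most 2 in any shNC library, and passed the count filter only through shHMGA2-2. Such members could be called only as higher, so that the count of higher calls was partly fixed in advance. Reads of the zinc finger paralogs in this list can be shared between copies. With limma on log2(FPKM + 1), 15 of them were called. Over all of chromosome 19, 127 of 1137 tested genes were higher and 36 lower, so that genes outside the list had calls in both directions.

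The position of the genes was examined in windows of 5 Mb with at least 10 tested genes. A window was taken as shifted when its median log2 difference was at least 0.5 and more than 3 times the median difference between replicates of either line. Of 499 windows, 64 (12.8%) were shifted, 33 higher and 31 lower in shHMGA2-2, with medians from -1.242 to 1.273. With limma on log2(FPKM + 1), 2.2% of windows were shifted. Between replicates of a line, 95% of window medians were within 0.175, and the largest was 0.525 in size. The shares were 15.1% of windows of 2 Mb and 10.2% of windows of 10 Mb. No DNA was measured, so that a change in copy number and a change in expression of neighbouring genes cannot be told apart.

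Stretches were at least 3 windows in a row with medians of at least 0.3 in the same direction. This rule was set after the windows had been seen. Windows with fewer than 10 tested genes were passed over, so that a stretch can span them, as between 45 and 135 Mb on chromosome 10. There were 16 stretches, of which 9 were higher and 7 lower. The stretches held 3221 tested genes, and 19.8% of these were called, against 13.9% of the 12889 genes outside. The genes in stretches thus made up 637 of the 2432 calls. The stretches were picked by the same differences that give the calls. More calls inside, and most genes of a stretch lying in its direction, therefore follow in part from the rule.

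The stretch with the most tested genes covered the first 75 Mb of chromosome 1, in 15 windows. There 601 of 663 tested genes (90.6%) were higher in shHMGA2-2, with a median log2 difference of 0.587, and 123 were called higher and 18 lower. The medians between replicates were -0.048 and 0.017. Against shNC the median of the same genes was 0.021 in shHMGA2-1 and 0.603 in shHMGA2-2. Farther along chromosome 1, between 145 and 225 Mb, 465 of 571 genes were lower in shHMGA2-2 (median -0.452), and between 230 and 245 Mb 55 of 64 genes were (median -0.614). In both, shHMGA2-1 lay near shNC (0.036 and 0.015) and shHMGA2-2 below it (-0.446 and -0.514).

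Chromosome 10 had the largest share of called genes of all chromosomes, with 112 lower and 40 higher of 661 tested. Between 25 and 40 Mb the median log2 difference was -1.124, and 33 of 58 tested genes were called lower and 2 higher. NRP1, ZEB1, KIF5B and ITGB1 lie in this stretch. Here both knockdown lines were below shNC, with medians of -0.423 in shHMGA2-1 and -1.467 in shHMGA2-2. Between 45 and 135 Mb, 390 of 478 genes were lower (median -0.484), and shHMGA2-1 was near shNC (0.065).

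Most other stretches had medians of the same size as those on chromosome 1. On the long arm of chromosome 3 the genes between 175 and 200 Mb were lower (median -0.469), as were those of chromosome 8 between 70 and 120 Mb (-0.474). Genes were higher on chromosome 4 up to 20 Mb (0.461), chromosome 6 between 125 and 150 Mb (0.509), chromosome 9 between 120 and 140 Mb (0.422), chromosome 17 between 5 and 25 Mb (0.45) and chromosome 20 between 45 and 65 Mb (0.456). Between 95 and 110 Mb on chromosome 3, shHMGA2-1 was the line farther from shNC, with a median of -0.784 against -0.213 in shHMGA2-2. The window with the highest median (1.273), between 40 and 45 Mb on chromosome X, held MED14, CASK and USP9X. CASK, a scaffold kinase, was at 24 and 27.8 CPM in shHMGA2-1 and at 162 and 153 CPM in shHMGA2-2, with shNC at 29.9 and 31.6 CPM.

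On a finer scale, 30 runs of at least 4 neighbouring tested genes were called in a single direction. The longest held 9 genes each. On chromosome 10, from 25174802 to 27243046, GPR158, APBB1IP, MASTL, ACBD5 and 5 others were lower (median log2 difference -1.388). On chromosome 14, from 61187559 to 61796428, PRKCH, HIF1A, its antisense genes HIF1A-AS1 and HIF1A-AS3, SNAPC1 and 4 others were lower (median -2.049). Since the strand setting of the counting is not given in the sources used here, reads of HIF1A and its antisense genes may not be separate.

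Other runs joined members of the groups above. On chromosome 4 the chemokine genes CXCL8, CXCL1, CXCL3 and CXCL2 formed a run of higher genes from 73740519 to 74099196. On chromosome 2 the run from 6840570 to 8684461 held CMPK2, RSAD2, RNF144A, ID2-AS1 and ID2, all higher. CMPK2 and RSAD2 overlap at their ends, on opposite strands. On chromosome 5 a run of 6 higher genes from 141355021 to 141512975 consisted of PCDHGA4, PCDHGB2, PCDHGA5, PCDHGB3, PCDHGA6 and PCDHGA7, whose transcripts share exons. On chromosome 6 the runs from 32254640 to 32820466 and from 33004182 to 33192499 held MHC class II genes, and the second ended with COL11A2. On chromosome 19 a run of 6 higher genes from 49043848 to 49072699 held CGB5, CGB8 and CGB7, near-identical genes of the chorionic gonadotropin beta chain, with NTF4 and KCNA7.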

How the data were processed

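Per the labels, RNA of 6 MDA-MB-231 libraries was sequenced. The authors deposited a table with raw gene counts, not normalized, and FPKM values made from them, which were recomputed to within 1 percent or 0.01 for 100% of values. The submitters' processing notes name HISAT2 version 2.2.1, HTSeq version 0.6.1 and GRCh38.p13. The strand setting is not given in the sources used here. Library totals were 16461178 to 17167293 counts.

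Counts were tested with edgeR version 4.0.16 in R version 4.3.3: filterByExpr, TMM scaling, a model of 3 groups over 6 libraries, the quasi-likelihood test and Benjamini-Hochberg adjustment over 16110 genes. SE was the log2 difference divided by the root of F. Intervals of ratios were exact binomial (95%, scipy version 1.17.1). Positions in GENCODE version 29 were on the deposited chromosome for 99.92% of 58254 matched genes.

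The members, gene lists, windows and rules were chosen with earlier results of these data known. Named genes were those of the study's hypothesis, the 10 largest log2 differences each way among called genes with a symbol and at least 10 CPM, the 5 largest CPM differences each way, in each list up to 5 called members with the largest difference and any defining marker, and in each window or run up to 4. HLA-DPA1, INSIG1, SREBF2, NFKBIA, IL1B, RELB, NFKB1, IL6, FOS, IFIT1, ID1, ZNF439, MED14, USP9X, the further genes named in runs and the motifs were chosen after values were seen. Some genes that the rule names are not reported here. DESeq2 version 1.42.0, other scalings and filters, the knockdown libraries alone, a replicate block, limma version 3.58.1 on log2(FPKM + 1), each library left out, and other window and term sizes served as alternatives.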

Additional observations from a re-analysis of the deposited data

How the results depend on the processing

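The alternatives kept the direction of all 117 named genes where they gave a value. The calls of named genes were lost for 23 with limma on log2(FPKM + 1), for HMGA2 with upper quartile scaling and with a filter at 1 CPM, and for IL1B with DESeq2. With limma, 784 genes were called, 392 higher and 392 lower, with 2 interferon-stimulated genes, 15 zinc finger genes on chromosome 19, 2.2% of windows shifted and 6 KEGG pathways with 30% or more of their genes called. That fit adds a pseudocount of 1 FPKM, which shrinks the differences of low genes. With no filter other than 1 count, 4 KEGG pathways had such a share, since 31871 genes were tested.

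Leaving out a library, with the lone sample of its line assumed to vary like the other groups, gave 2150 to 2378 called genes, 1050 to 1262 higher and 1061 to 1139 lower. The lists and windows kept within 1.5 times their counts: 10 MHC class II genes in each case, 11 to 13 NF-kB genes, 6 to 8 interferon-stimulated genes, 38 to 47 zinc finger genes, 13 to 14 sterol genes, 8 to 9 ERK output genes and 12.6% to 14.4% of windows. Between 20 and 26 KEGG pathways had 30% or more of their genes called. HMGA2 and TAP1 fell under 2-fold without shHMGA2-1 replicate 2 and HMGA2 without shHMGA2-2 replicate 1. IL1B lost its call without shHMGA2-1 replicate 2 or either shHMGA2-2 library.

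Same-numbered libraries of the knockdown lines did not deviate together (r = -0.1004 over genes), so the numbers do not pair the samples. With the replicate number as a block, 2352 genes were called (1204 higher and 1148 lower), and with the numbers crossed, an alternative added after seeing the data, 2425 were called; no named call changed. With 2 libraries a line and 1 line for each shRNA, the tests do not cover differences between clones.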
